A study of Mus musculus with 40 samples.

Results

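The B and T lymphocyte genes described here are 9 of the 52636 genes in a count table of mouse brown adipose tissue, the thermogenic fat. They were chosen by name, as Cd79a, Cd79b, Ms4a1, Cd3e, Cd3d, Cd4, Cd8a, Nkg7 and Gata3, and all 9 were found through their Ensembl identifiers. The 40 libraries fell into 8 groups of 5, all from male C57BL/6 mice that the labels' protocol puts at 10 to 14 weeks of age and the series design at 10 to 12 weeks. Every mouse had received antibody once into the peritoneum. In control mice this was an anti-ragweed isotype antibody at 40 mg/kg. In Jag antibody mice it was anti-Jag1 and anti-Jag2, each at 20 mg/kg, which block a pair of Notch ligands. Tissue was taken at 15 h, 5 d or 7 d, with 1 control and 1 Jag antibody group at each time. The other two groups were collected at 7 d after daily thyroid hormone from day 2 of treatment (T4 at 1 ug/g and T3 at 0.05 ug/g). Samples are named by the number in their labels, 1 to 5 in control groups and 6 to 10 in Jag antibody groups. The labels do not state whether a sample pools tissue of several mice, so each is taken as 1 mouse and p-values measure the spread between these samples.

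B cells carry an antigen receptor whose signal passes through the paired chains Cd79a and Cd79b, and mature B cells bear Ms4a1 (CD20). T cells carry a receptor that signals through the CD3 chains, Cd3e and Cd3d among them, with Cd4 marking helper and Cd8a marking cytotoxic cells. Nkg7 is a granule protein of natural killer (NK) and cytotoxic T cells, and Gata3 is a transcription factor of T cells and innate lymphoid cells that some non-lymphoid cells also use. Adipose tissue holds resident lymphocytes, and lymph nodes lie close to several fat depots. In bulk tissue, fewer cells of a type and less RNA per cell cannot be told apart.

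On GRCm38 with the GENCODE M21 annotation, all 9 are protein-coding genes on 6 chromosomes. Cd79a lies at chr7:24897381-24902197, Cd79b at chr11:106311341-106314762 and Ms4a1 at chr19:11249675-11266241. Cd3e (chr9:44998740-45009627) and Cd3d (chr9:44981786-44987339) are neighbours. Cd4 lies at chr6:124864692-124888221, Cd8a at chr6:71373427-71379173, Nkg7 at chr7:43437073-43438249 and Gata3 at chr2:9857078-9890034. The spans of Ms4a1, Cd3e and Gata3 overlap other annotated genes (4930526L06Rik for Ms4a1, Gm48719 and Gm48720 for Cd3e, and 3 genes for Gata3). Strands and exons of the overlapping genes were not compared, and whether counting used the strand is not given in the sources used here. Whether reads were shared with the overlapping genes could therefore not be told.

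Promoter sequences from RefSeq (GRCm38.p6) matched 6 of the 9 genes, all except Cd79b, Ms4a1 and Cd4. The 250 bases before the RefSeq start of Cd79a, Cd3e and Cd3d are shown because the transcripts of these genes were high together in 1 mouse, described below. The RefSeq starts of Cd79a and Cd3e lie downstream of the GENCODE ones, so 116 bases of the Cd79a window and 16 of the Cd3e window fall within the gene spans above, and 0 of the Cd3d window. Capitals mark each match of GGAA, the core recognised by the ETS family of transcription factors, on either strand (GGAA or TTCC).
Cd79a (chr7:24897247-24897496, plus strand): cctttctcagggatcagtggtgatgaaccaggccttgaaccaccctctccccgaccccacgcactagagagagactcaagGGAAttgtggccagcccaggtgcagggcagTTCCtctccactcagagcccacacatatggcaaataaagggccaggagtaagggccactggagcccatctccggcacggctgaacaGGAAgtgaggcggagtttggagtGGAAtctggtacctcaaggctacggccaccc
Cd3e (chr9:45009612-45009861, minus strand): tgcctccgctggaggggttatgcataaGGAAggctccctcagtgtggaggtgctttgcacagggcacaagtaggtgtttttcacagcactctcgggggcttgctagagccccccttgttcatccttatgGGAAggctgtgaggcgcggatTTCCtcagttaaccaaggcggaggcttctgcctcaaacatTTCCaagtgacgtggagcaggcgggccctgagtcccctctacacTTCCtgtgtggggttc
Cd3d (chr9:44981536-44981785, plus strand): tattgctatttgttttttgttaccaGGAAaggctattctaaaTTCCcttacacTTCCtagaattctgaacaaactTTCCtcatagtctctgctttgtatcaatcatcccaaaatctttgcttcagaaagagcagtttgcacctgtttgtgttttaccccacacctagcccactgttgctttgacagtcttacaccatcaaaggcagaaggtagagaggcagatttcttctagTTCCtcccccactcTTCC
The Cd79a window held 4 matches, that of Cd3e 5 and that of Cd3d 6. Of 32817 promoter windows of this length, 93.4% held at least 1 match and the median was 3, so the presence of this core did not set these genes apart. None of the 3 windows held the octamer ATGCAAAT or its reverse complement, which 1.6% of the windows held. Cd3d alone of the 3 held GATA, which 53.6% of the windows held on either strand. The window of Cd8a, which was high in the same mouse but is not shown, held 6 matches of GGAA and 2 of GATA.

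The 9 genes were low in this tissue. Library totals were 12217623 to 36511893 counts, of which the 9 genes together had 53 to 380 in 39 of the 40 libraries and 1385 in the other. Levels between genes are compared as CPM (a gene's share of the library's counts, scaled to 1e6) per kb of exonic length, as medians over those 39 libraries. Nkg7 had the highest, 1.40, followed by Cd79b with 0.881 and Cd79a with 0.477. Cd3d had 0.237 and Cd4 0.229, and Cd8a (0.0933), Ms4a1 (0.0796), Cd3e (0.0559) and Gata3 (0.0430) were lowest. Brown adipocyte genes, by contrast, summed to between 8278 and 69990 CPM over a list of 8, so the libraries had the transcripts of the labelled tissue. Cd3d was at 0 counts in 2 mice, Cd8a in 4 and Gata3 in 5, and the other 6 genes were counted in every mouse. Gata3, with 0 to 23 counts, did not pass the filter on low counts, and the other 8 genes were tested.

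Jag antibody mouse 6 at 15 h stood apart from all other mice for 7 of the 9 genes. Below, levels are log2 CPM with a prior count of 2 added before the logarithm, on which 0 counts read as -3.37. Among the B cell genes, Ms4a1 was at 4.29 in this mouse and at -0.12, 0.11, 0.61 and 0.21 in mice 7 to 10 of its group. Cd79b was at 4.37 in mouse 6 and at -0.30, -0.41, 0.67 and -0.35 in the others. Cd79a was at 3.32 against -0.03, -0.29, 0.10 and -0.80. In all 3, mouse 6 lay above every one of the other 39 mice of the study, and its 4 group mates lay within the range of the control mice of all groups. Control mice at 15 h alone had Cd79b at 0.09 to 1.09, above all of these mates but the one at 0.67. Their Cd79a was at -0.59 to 0.24, above the mate at -0.80.

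Mouse 6 stood apart for the T cell genes too. Cd3e was at 2.30 in mouse 6 and at -1.93, -2.14, -1.04 and -1.27 in mice 7 to 10. Cd3d was at 3.09 against -1.66, -1.77, -0.86 and -0.08. Cd4 was at 3.39 against 0.05, -1.03, 0.27 and -0.45, and Cd8a at 3.10 against -1.43, -3.37, -1.25 and -1.27. Mouse 6 was again the highest of 40 for each of these 4 genes. Nkg7 was at 1.31 in it, with 12 mice higher, and Gata3 at -0.63, with 2 mice higher. The 4 group mates lay below all control mice at 15 h for Cd3e (controls -0.78 to -0.26). They did so for Nkg7 as well, at -1.47 to 0.18 against 0.24 to 1.88. For Cd3d, Cd4 and Cd8a they overlapped with these controls. How many of all genes were separated in this way without mouse 6 was not counted.

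In raw counts, mouse 6 had 317 of Ms4a1 where the other 39 mice had 2 to 39. It had 335 of Cd79b (others 10 to 117), 161 of Cd79a (3 to 25), 170 of Cd4 (2 to 92), 138 of Cd8a (0 to 29), 137 of Cd3d (0 to 35) and 79 of Cd3e (1 to 29). Its library total was 14981107 counts, within the range of the others. On the CPM scale its level over the median of the other 39 mice was 39.4-fold for Ms4a1, 24.9-fold for Cd8a, 21.2-fold for Cd3e, 19.5-fold for Cd3d, 16.3-fold for Cd79b, 14.2-fold for Cd79a and 11.3-fold for Cd4. For Gata3 it was 3.23-fold and for Nkg7 1.86-fold. A single mouse gives no replicate error for these ratios.

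**Figure D1:**
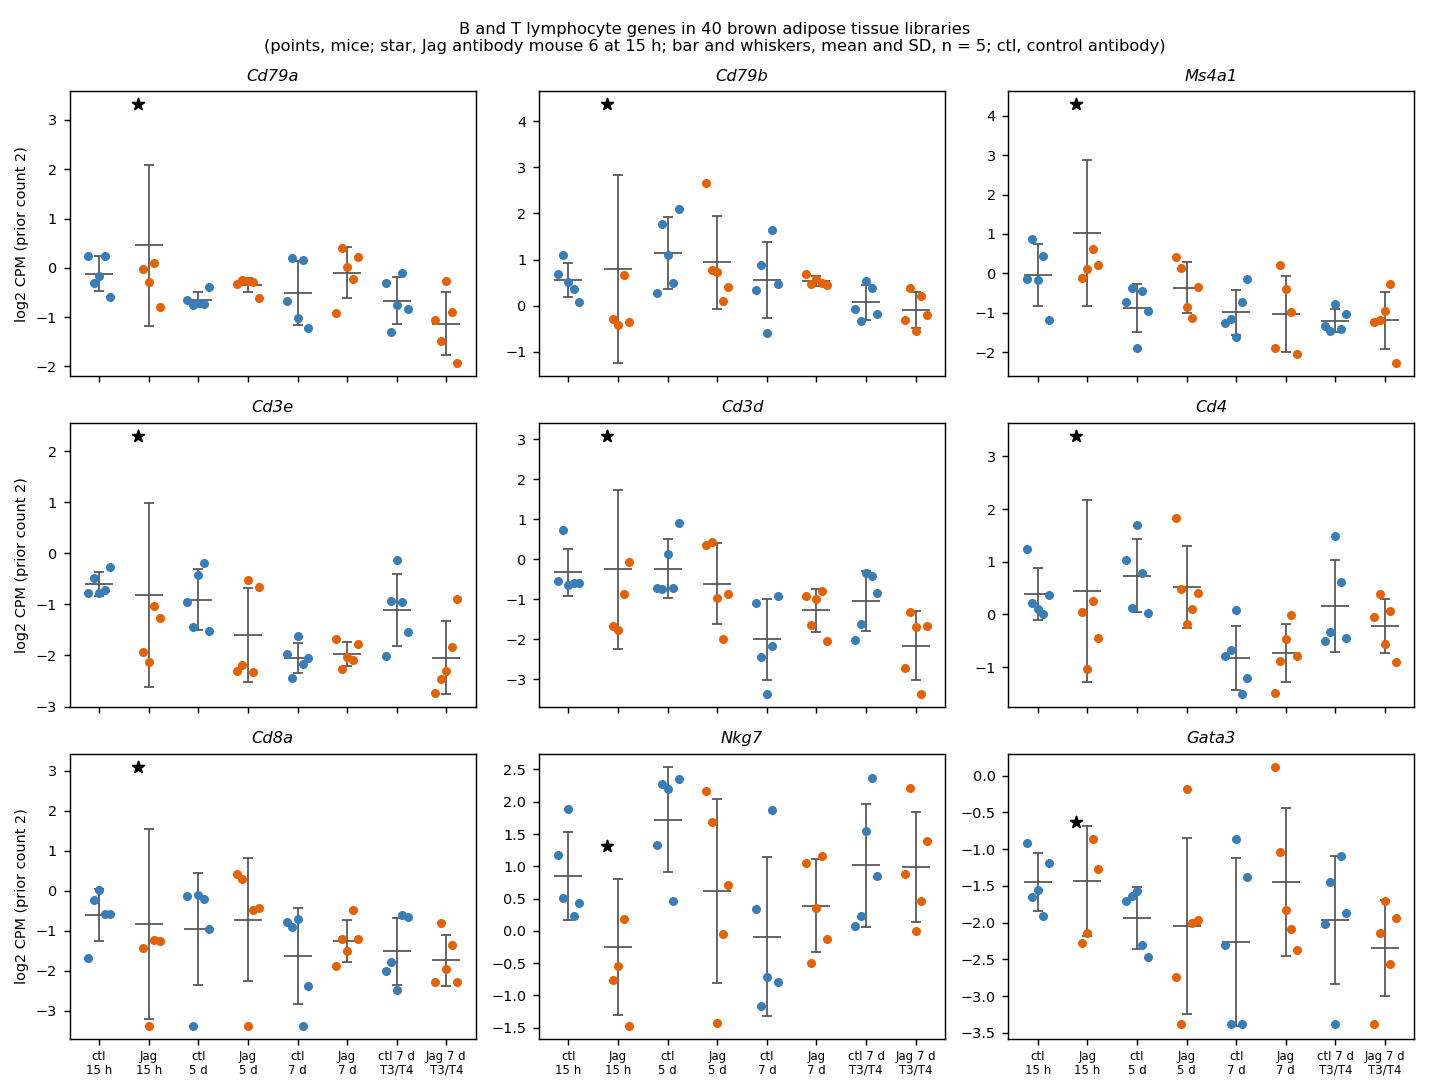
Levels of the 9 lymphocyte genes (log2 CPM, prior count 2, y axis) in each of the 40 mice by group (x axis), with the mean and SD of 5 mice. The star, Jag antibody mouse 6 at 15 h, lies above the other 39 mice for all genes but Nkg7 and Gata3.

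Other lymphocyte genes were high in the same mouse. Of 16 further B cell genes 12 had their highest level of 40 in it, with Ighd (the IgD heavy chain of mature B cells) at 572 counts against 3 to 101. Of 20 further T cell genes 17 had their highest level in it, with Lck (the kinase that starts T cell receptor signalling) at 216 counts against 6 to 82. The summed level of the other T cell genes was 157 CPM against 12.7 to 111 in the other 39 mice, and that of the other B cell genes was 493 against 18.1 to 1706, 1 mouse being higher. None of 7 plasma cell genes was highest in it, but their sum was 27.0 CPM, 15.3-fold over the median of the other 39 mice with 1 mouse higher, and Jchain (the joining chain of secreted antibody) had 368 counts against a median of 14. None of 12 NK and cytotoxic genes was highest in it.

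Lists of cells that could be taken with the tissue were set beside these values. NK and cytotoxic genes summed to 17.0 CPM in mouse 6, with 15 mice higher, and myeloid genes to 491, with 19 higher. Pan-leukocyte genes summed to 273 CPM (others 29.5 to 1524) and red blood cell genes to 337 (others 142 to 2751). Of 7 genes of lymph node stroma and high endothelial venules, Glycam1, made by those venules, was highest in mouse 6 at 12 counts against 0 to 8, while Cxcl13, a chemokine that attracts B cells, had 454 counts against a median of 93 and a maximum of 1538. Ccl21a and Ccl19 were at 0 in all 40 mice, and Madcam1 and Fcgbp, at 0 in mouse 6, had a median of 0 in the others. The list's sum was 214 CPM in mouse 6 and 71.8 to 396 in the others. Most of that sum was Enpp2, with 3024 counts in mouse 6 against a median of 3839 (7.53 against 7.50 log2 CPM). The sum therefore says little about the other genes of the list. Rag1, Rag2 and Dntt, which mark thymocytes, were at 0 in it and had a median of 0 in the others. Skeletal muscle genes summed to 2301 CPM in mouse 6, with 10 mice higher. The part of tissue taken along at dissection in the level of this mouse was not tested.

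**Figure D2:**
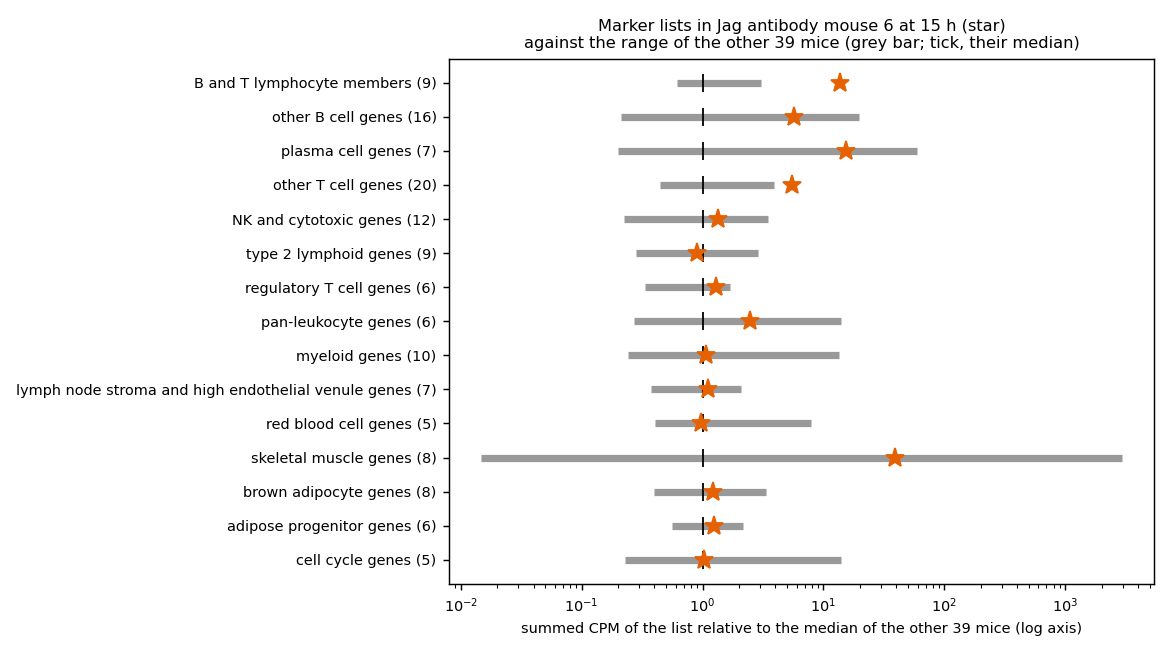
Summed CPM of each marker list in Jag antibody mouse 6 at 15 h (star) relative to the median of the other 39 mice, whose range is the grey bar (log x axis, number of genes in parentheses). The star lies beyond the range for the 9 lymphocyte genes and for the other T cell genes.

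Without mouse 6 at 15 h, the distance from the lowest to the highest of the 8 group means was 0.90 log2 units for Gata3, 1.03 for Cd79a, 1.21 for Cd8a, 1.24 for Cd79b, 1.40 for Ms4a1, 1.45 for Cd3e, 1.56 for Cd4, 1.92 for Cd3d and 2.37 for Nkg7. With the groups put in order of their means, neighbouring groups differed by less than the larger of their SDs for 8 of the 9 genes. The exception was Cd79b, at 0.07 ± 0.38 in control mice at 7 d with hormone and 0.53 ± 0.10 in Jag antibody mice at 7 d (SD, n = 5). Ms4a1 was highest at 15 h, at -0.04 ± 0.77 (SD, n = 5) in control mice and 0.20 ± 0.30 (SD, n = 4) in Jag antibody mice without mouse 6, and lowest with hormone at 7 d, at -1.20 ± 0.29 in control and -1.18 ± 0.72 in Jag antibody mice (SD, n = 5). Cd79a was lowest with hormone in Jag antibody mice, at -1.13 ± 0.63 (SD, n = 5). Cd3e ran from -2.05 ± 0.30 in control mice at 7 d to -0.60 ± 0.23 in control mice at 15 h (SD, n = 5).

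Differences between groups were tested with edgeR's quasi-likelihood test in 1 fit over the 40 libraries and 17079 genes. A gene is said to be called where its p, adjusted by Benjamini-Hochberg over all genes tested, was under 0.05. The share of all tested genes called in each comparison is given as its background.

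The first question is whether blocking Jag1 and Jag2 changed these genes. None of the 8 tested genes was called between antibodies at 15 h, where 1.14% of all genes were called. None was called at 5 d (background 8.02%), at 7 d (2.5%) or at 7 d with hormone (1.14%) either. At an unadjusted p under 0.05 there were 3 of the 8 genes at 15 h, where 12.0% of all genes were, and 0 in the other 3 comparisons, where 22.9%, 20.5% and 11.9% of all genes were. DESeq2 called 1 at 15 h, Ms4a1 (log2 fold change 2.27, adjusted p = 0.0234). At 15 h, 7 of the 8 log2 fold changes of Jag antibody over control mice were positive, with a median of 1.49 against -0.04 over all genes tested. Ms4a1 had 2.25 (SE 0.66, adjusted p = 0.0746), Cd79b 1.76 (SE 0.66, adjusted p = 0.189) and Cd79a 1.60 (SE 0.53, adjusted p = 0.121).

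These differences at 15 h rested on mouse 6. Without it the median over the 8 genes was -0.78, and Ms4a1 was at 0.12 (SE 0.49, adjusted p = 0.979). Cd79a was then at -0.15, Cd79b at -0.67, Cd3e at -1.16, Cd3d at -0.82, Cd4 at -0.74 and Cd8a at -1.35, each with its sign turned and none called. Nkg7 was lower in Jag antibody mice with mouse 6, at -0.98 (SE 0.65, adjusted p = 0.652), and without it, at -1.66 (SE 0.70, adjusted p = 0.312). The unadjusted edgeR p without mouse 6 was 0.0231 for Nkg7 and 0.0405 for Cd3e.

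At 5 d the values were close to each other, from -0.82 for Nkg7 (SE 0.62) to 0.60 for Ms4a1 (SE 0.67). At 7 d they lay between -0.17 for Cd79b (SE 0.67) and 0.60 for Cd3d (SE 0.89). With hormone at 7 d they lay between -1.47 for Cd3d (SE 0.87) and 0.18 for Ms4a1 (SE 0.71), and 7 of 8 were negative. With mouse 6 at 15 h left out of the fit, Cd3e was at -1.24 there (unadjusted p = 0.0219, adjusted p = 0.312). Cd3d was then at -1.47 (unadjusted p = 0.0381, adjusted p = 0.388), and neither was called. Standard errors over the 4 comparisons were 0.53 to 1.01, and 0.35 to 0.82 with mouse 6 at 15 h left out of the fit. Differences of that size were not detectable, and larger ones could be missed after adjustment over all genes. Ms4a1 at 15 h differed by several times its SE with all mice and was not called. Skeletal muscle genes summed to between 1018 and 175926 CPM in control mice at 5 d and between 0.878 and 43.9 CPM in Jag antibody mice at 5 d, and the part of muscle tissue in the 5 d comparison of these genes was not tested beyond the fit with a muscle score, in which none was called.

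Whether the antibody difference depended on time or hormone was tested directly. None of the 8 genes was called for the difference between 5 d and 15 h (background 0.0995%), between 7 d and 15 h (1.31%), or for the interaction of antibody and hormone at 7 d (0.00586%). An unadjusted p under 0.05 was reached by 0, 2 and 0 of the 8 genes in these 3 tests and by 14.6%, 17.0% and 12.3% of all genes, and DESeq2 called none. The lowest adjusted p was that of Ms4a1 for 7 d against 15 h (log2 difference -2.12, SE 0.97, adjusted p = 0.257). Without mouse 6 its log2 difference was 0.01 (SE 0.67, adjusted p = 0.994). In the interaction without mouse 6 in the fit, Cd3d was at -2.08 (unadjusted p = 0.0404, adjusted p = 0.405) and was not called.

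Over time in Jag antibody mice, all the calls rested on mouse 6. At 7 d against 15 h, 6 of the 8 tested genes fell, where 18.3% of all genes were called and 7.93% fell. Ms4a1 fell by 3.26 (SE 0.70, adjusted p = 0.00198), Cd3e by 2.79 (SE 0.72, adjusted p = 0.0082), Cd3d by 2.56 (SE 0.79, adjusted p = 0.0237) and Cd4 by 2.32 (SE 0.64, adjusted p = 0.0125). Cd79b fell by 1.83 (adjusted p = 0.0488) and Cd79a by 1.55 (adjusted p = 0.0379). The levels of Ms4a1 in the 5 mice at 7 d were -1.90, 0.21, -0.40, -0.97 and -2.05, overlapping with the 4 other mice at 15 h. Without mouse 6, none of the 8 genes was called by edgeR where 14.1% of all genes were, 1 having an unadjusted p under 0.05. Ms4a1 was then at -1.13 (SE 0.50, adjusted p = 0.12), and Cd79a and Cd79b were at 0.21 and 0.61, with their signs turned.

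At 5 d against 15 h in Jag antibody mice, Ms4a1 fell by 2.66 (SE 0.67, adjusted p = 0.00914) and Cd79a by 1.90 (SE 0.54, adjusted p = 0.0176). These 2 of 8 genes compare with 14.5% of all genes called and 6.24% that fell. Without mouse 6 neither was called, at -0.53 (adjusted p = 0.497) and -0.14 (adjusted p = 0.83). In their place Cd79b was called as higher at 5 d, by 1.38 (SE 0.47, adjusted p = 0.0484), where 11.6% of all genes were called in either direction. With mouse 6, Cd79b had been at -1.05 (SE 0.64, adjusted p = 0.259). Its levels at 5 d were 2.67, 0.78, 0.74, 0.10 and 0.40, so mouse 6 of the 5 d group was the highest there.

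**Figure D3:**
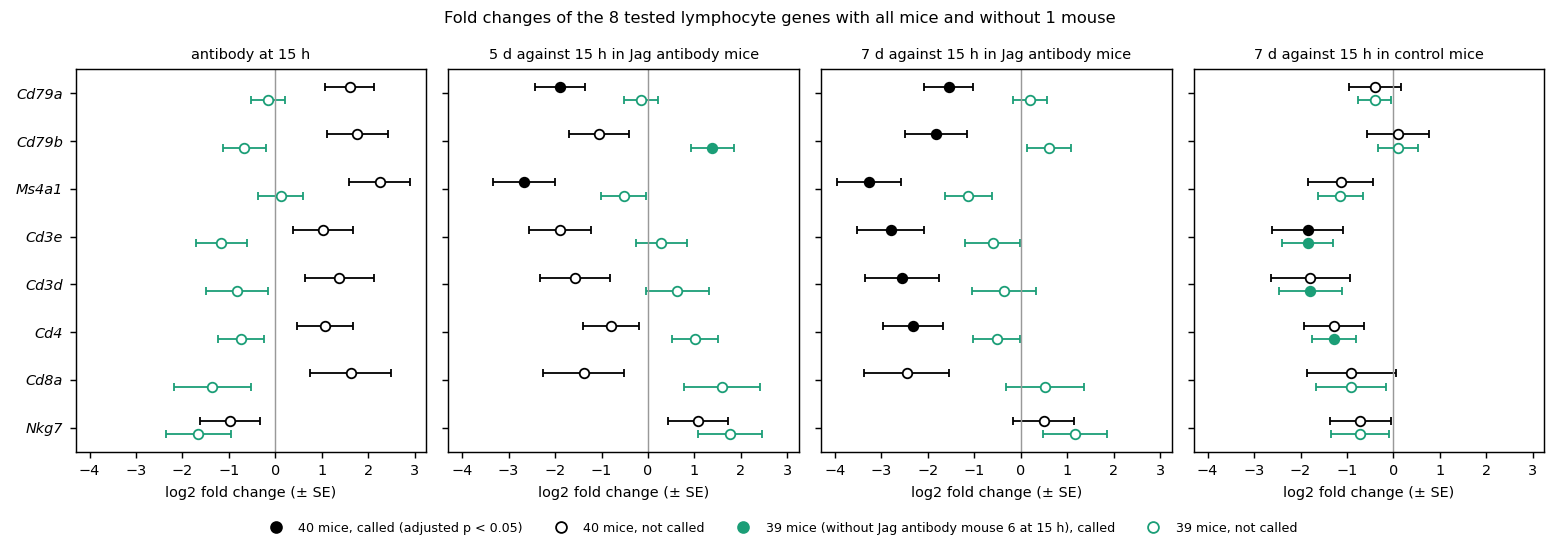
Log2 fold changes with SE (x axis) of the 8 tested genes (y axis) in 4 comparisons, from the fit of 40 mice (black) and of the 39 mice without Jag antibody mouse 6 at 15 h (green). Filled points are called. The 6 genes called at 7 d against 15 h in Jag antibody mice lose their call without that mouse, while values in control mice keep their size.

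In control mice, Cd3e was the 1 gene of the 8 called between 7 d and 15 h. It fell by 1.85 (SE 0.77, adjusted p = 0.0478) where 45.1% of all genes were called and 23.5% fell, so 1 of 8 lies below the background. Of 17 other T cell genes 3 fell, also under that share in this fit. In the fit without Jag antibody mouse 6 at 15 h, 7 of the 17 fell, where 44.0% of all genes were called in either direction. The levels of Cd3e were -0.78, -0.48, -0.78, -0.72 and -0.26 at 15 h and -1.96, -2.44, -1.62, -2.16 and -2.06 at 7 d, so the groups did not overlap, as for 25.6% of all genes. In counts this was 8 to 14 at 15 h and 1 to 4 at 7 d. Cd3d did not overlap either, at -0.53, 0.72, -0.63, -0.59 and -0.59 against -1.09, -2.44, -3.37, -2.16 and -0.92, and its log2 fold change was -1.79 (SE 0.85, adjusted p = 0.0859). Cd4 was at 0.39 ± 0.50 against -0.82 ± 0.61 (SD, n = 5), which differ by -1.28 (SE 0.65, adjusted p = 0.107).

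Leaving out any 1 of the 10 control mice of these groups took away the call of Cd3e, with log2 fold changes of -2.05 to -1.69 and adjusted p of 0.0518 (without mouse 3 at 7 d) to 0.0997 (without mouse 2 at 7 d). Leaving Jag antibody mouse 6 at 15 h out of the shared fit, which is in neither group compared but changes the estimate of the spread and the genes tested (17337), left 3 genes called, as against 44.0% of all genes. Cd3e fell by 1.85 (adjusted p = 0.00664), Cd3d by 1.79 (adjusted p = 0.0305) and Cd4 by 1.28 (adjusted p = 0.0295). The B cell genes were not called with or without it: Cd79a was at -0.40, Cd79b at 0.10 and Ms4a1 at -1.14 with all mice. At 5 d against 15 h in control mice none of the 8 genes was called by edgeR or DESeq2, with 0 at an unadjusted p under 0.05, where 36.4% of all genes were called and 47.2% had such a p.

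Leukocyte genes of other kinds were also lower at 7 d than at 15 h in control mice. All 6 pan-leukocyte genes fell between 15 h and 7 d, where 23.5% of all genes did. Ptprc (CD45, carried by nearly all leukocytes) changed by -4.34 on the log2 scale (SE 0.62, adjusted p = 7.23e-06). Cd53 (a membrane protein of leukocytes) changed by -4.91 (SE 0.78, adjusted p = 1.97e-05). All 10 myeloid genes fell too, and their sum was 299 to 6275 CPM at 15 h and 112 to 274 CPM at 7 d. Mice 2 and 3 at 15 h had 6926 and 2985 counts of Ptprc where the other 3 had 299 to 671. Cd3e, whose levels are given above, was not highest in either of them. Without mouse 2, Cd3e was at -1.80 (adjusted p = 0.0784) and Ptprc fell by 3.50. Without both, Cd3e was at -1.87 (SE 0.87, adjusted p = 0.106), of like size, and 3 of 6 pan-leukocyte and 4 of 10 myeloid genes fell, Ptprc by 2.14. The share of all genes that fell in that refit was not counted.

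Thyroid hormone at 7 d called none of the 8 genes in either antibody arm. In control mice 43.2% of all genes were called, and the values for the T cell genes were 1.39 for Cd3e (SE 0.77, adjusted p = 0.141), 1.21 for Cd4 (SE 0.65, adjusted p = 0.13) and 0.98 for Cd3d (SE 0.86, adjusted p = 0.372). None of the 8 had an unadjusted p under 0.05, where 50.7% of all genes did, and DESeq2 called none. Without Jag antibody mouse 6 at 15 h in the fit, Cd3e rose by 1.40 (adjusted p = 0.0387) and Cd4 by 1.21 (adjusted p = 0.0398), 2 of 8 genes where 42.3% of all genes were called. Cd4 in the mice given hormone was at -0.51, -0.34, 1.49, 0.63 and -0.44, overlapping with -0.79, -0.68, 0.09, -1.52 and -1.21 without hormone. B cell genes were at -0.19 (Cd79a), -0.63 (Cd79b) and -0.35 (Ms4a1).

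Nkg7 was at 0.08, 0.24, 1.55, 2.37 and 0.85 with hormone and at 0.34, -1.16, -0.71, 1.86 and -0.80 without it in control mice. The groups overlapped, and the log2 fold change was 1.03 (SE 0.65, adjusted p = 0.204). It was called as higher, by 1.92 (adjusted p = 0.00712), where each library's trend with transcript length and GC content was removed, and by 1.88 (adjusted p = 0.0298) without control mouse 4 at 7 d. The same removal of trends called Nkg7 as lower at 7 d than at 15 h in control mice, by -1.65 (adjusted p = 0.0186) in place of -0.72 (SE 0.66, adjusted p = 0.387).

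With Jag antibody, the hormone comparison called 9.5% of all genes and none of the 8, with 1 at an unadjusted p under 0.05 (27.0% of all genes) and none called by DESeq2. That gene was Cd79a, at -1.06, -1.49, -0.26, -0.90 and -1.93 with hormone and -0.92, 0.40, 0.03, -0.23 and 0.22 without. Its log2 fold change was -1.13 (SE 0.56, adjusted p = 0.184). Without mouse 6 at 15 h in the fit it fell by 1.13 (adjusted p = 0.0386), where 8.86% of all genes were called in either direction. Cd79b, the partner chain, did not overlap between these groups, as for 12% of all genes. It was at -0.31, 0.38, -0.56, 0.21 and -0.20 with hormone and at 0.68, 0.46, 0.58, 0.49 and 0.44 without, yet was not called, at -0.63 (SE 0.67, adjusted p = 0.564).

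Genes of NK and cytotoxic cells were higher with hormone than without it in control mice at 7 d. This held for 10 of 12, where 20.3% of all genes rose, with a median log2 fold change of 2.88 over the 12 against 0.04 over all genes. Their summed level had group medians of 4.04 CPM without hormone and 19.7 with it. In control mice it was 13.1 at 15 h and 20.6 at 5 d. The 4.04 was the lowest of the 8 groups, and the comparison of 7 d with 15 h below uses the same low group. Ncr1 (the NK receptor NKp46) rose by 3.90 (SE 0.73, adjusted p = 0.000117), from 0 to 3 counts to 8 to 62 counts, and Eomes (a transcription factor of NK cells) rose by 4.10 (SE 0.88, adjusted p = 0.000423). Of 17 tested T cell genes outside the 9, 5 rose, Il7r (the interleukin 7 receptor) by 4.65 (SE 1.14, adjusted p = 0.0015) among them, and of 14 B cell genes 3 rose, shares near that of all genes. Pan-leukocyte genes rose for 5 of 6 and myeloid genes for 6 of 10 in the same comparison. Under hormone in Jag antibody mice 1 of 12 NK, 1 of 17 T cell and 0 of 14 B cell genes rose, where 4.29% of all genes did, and 0 fell in these lists. Between 15 h and 7 d in control mice 9 of the 12 NK and cytotoxic genes fell, where 23.5% of all genes did. Ncr1 fell by 3.31 (SE 0.74, adjusted p = 0.000545). Without control mice 2 and 3 at 15 h, 2 of the 12 fell, Ncr1 by 2.74 (adjusted p = 0.0145). The share of all genes that fell in that refit was not counted.

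Of 14 other B cell genes 2 were called between antibodies at 5 d, and of 3 tested plasma cell genes 1, where 5.93% of all genes were lower. Igkc (the kappa light chain) was lower in Jag antibody than in control mice at 5 d by -6.01 (SE 1.44, adjusted p = 0.0114), Ighm (the IgM heavy chain) by -3.45 (SE 0.85, adjusted p = 0.013) and Jchain by -4.58 (SE 1.28, adjusted p = 0.0263). The control mice at 5 d had 124, 110, 381, 62 and 10987 counts of Igkc, so that control mouse 5 alone was high, and Jag antibody mice had 30 to 104. Control mouse 5 at 5 d also had 1069 counts of Jchain against 10 to 49 in its group, and 8 counts of Cd79a and 5 of Ms4a1. Its library total was 16235465 counts, the lowest of its group. In log2 CPM its Cd79a, at -0.38, was the highest of its group. The mean of Cd79a, Cd79b and Ms4a1 was 0.26 in it and -0.51 to 0.21 in the other control mice at 5 d. Without this mouse Igkc was at -1.05 (adjusted p = 0.635), Ighm at -1.24 (adjusted p = 0.338) and Jchain at -0.14 (adjusted p = 0.966). Thy1, a surface protein of T cells and of fibroblasts, was lower by -1.60 (adjusted p = 0.0116), or -1.03 (adjusted p = 0.099) without it. Over time in Jag antibody mice, the other B cell genes fell for 8 of 14 and the other T cell genes for 7 of 17 at 7 d against 15 h. Of all genes 7.93% fell there. Without mouse 6 at 15 h, 0 of 14 and 0 of 17 did, where 14.1% of all genes were called in either direction.

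Correlations over mice were taken after subtracting each group's mean, so that they describe mice of 1 group. Over the 28 pairs of the 8 tested genes, Pearson's r ran from 0.12 to 0.72 with a median of 0.51 in 40 mice, and 5 pairs had a permutation p under 0.05 after adjustment over the 36 pairs of the 9 genes. Without mouse 6 at 15 h the range was -0.37 to 0.61 and the median 0.12, with 1 such pair. Cd79a and Cd79b, chains of 1 complex, went from 0.70 to 0.25, and Cd3e and Cd3d from 0.51 to 0.08.

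The 1 pair past the threshold without mouse 6 was Cd79b with Nkg7, at r = 0.61 and rho = 0.61 in 40 mice and r = 0.61 (permutation p = 0.00113, adjusted 0.0407 over 36 pairs) and rho = 0.58 (permutation p = 0.00043, adjusted 0.0155) in 39. Leaving out the 2 mice farthest from the median of Cd79b gave 0.53 in those 39. Cd4 with Cd8a had r = 0.46 (permutation p = 0.0136, adjusted 0.137) and rho = 0.56 (permutation p = 0.00106, adjusted 0.0191) in 39 mice. The points share libraries and low counts, and a correlation over mice does not place the transcripts in 1 cell.

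**Figure D4:**
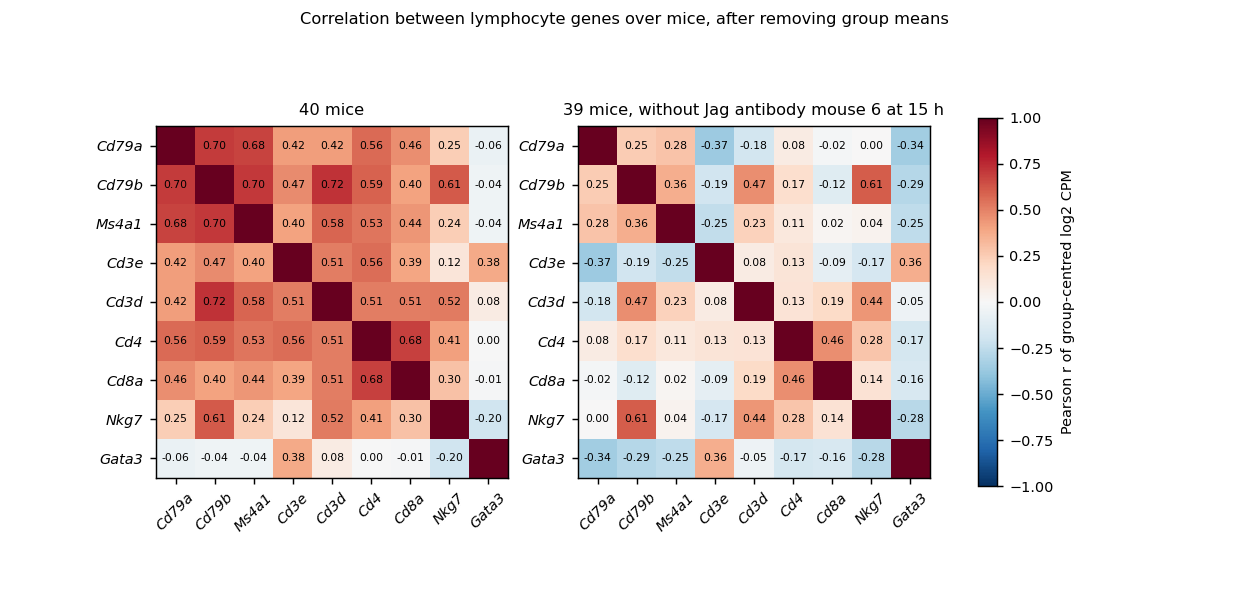
Pearson r of log2 CPM with group means removed for each pair of the 9 genes over 40 mice (left) and over 39 mice without Jag antibody mouse 6 at 15 h (right). The median over the 28 pairs without Gata3 goes from 0.51 to 0.12.

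Likeness was measured by Pearson's r over 40 mice among 13635 genes with a mean log2 CPM of at least 0. Ighd came first for Cd79a (r = 0.70) and Ms4a1 (0.71), Lck for Cd79b (0.81) and Cd3d (0.84), and Gimap3 for Cd3e (0.61), Cd4 (0.69) and Cd8a (0.68). Without mouse 6, Lck remained first for Cd3d (0.71), and for Cd79a, Cd79b, Ms4a1, Cd3e, Cd4 and Cd8a none of the first 3 genes was among the first 3 in 40 mice. Nkg7 was most like Klrk1, the NK receptor NKG2D, in both (0.80 and 0.81), followed by H2-DMb1 (0.80 and 0.79), a gene of antigen loading on class II molecules. Gata3 was most like Gm14137 (0.59), R3hdm2 (0.58) and Tmem88b (0.58) in 40 mice.

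The mean log2 CPM of Cd79a, Cd79b and Ms4a1 ran with that of 5 red blood cell genes, with r = 0.45 and rho = 0.56 in 40 mice and r = 0.55 and rho = 0.56 in 39. Without the 2 mice farthest from the median the 40 mice gave 0.57. The mean of Cd3e and Cd3d had r = 0.04 with the same genes in 40 mice and -0.17 in 39. It had r = 0.37 with the pan-leukocyte genes in 40 mice and 0.32 in 39. The mean of Cd79a, Cd79b and Ms4a1 had r = 0.34 and 0.28 with them. The B and T cell means had r = 0.66 with each other in 40 mice and 0.02 in 39. Both kinds of mean share a library and its scaling, and the part of blood in the B cell transcripts was not tested.

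**Figure D5:**
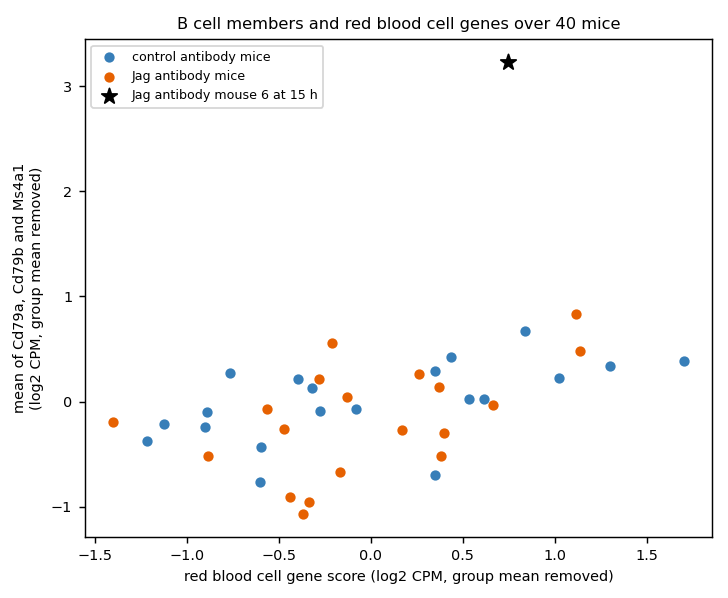
Mean log2 CPM of Cd79a, Cd79b and Ms4a1 (y axis) against that of 5 red blood cell genes (x axis), each with its group mean removed, in 40 mice. The points rise together (r = 0.45, or 0.55 without the star, Jag antibody mouse 6 at 15 h).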

How the data were processed

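Bulk RNA of 40 samples was sequenced. The authors deposited raw read counts per gene, used for all tests, and FPKM values, used in 1 alternative. Per the submitters' processing notes, GSNAP and limma were used, and their roles, the genome build and strand handling are not given in the sources used here. Groups came from the labels. Counts were fitted with edgeR 4.0.16 in R 4.3.3 (quasi-likelihood, robust, TMM scaling, filterByExpr), giving 17079 genes, with Benjamini-Hochberg adjustment over all of them. The SE is the log2 fold change divided by the square root of F. Depth was 12217623 to 36511893 counts per sample. The fit was tested on simulated data. Alternatives were DESeq2 1.42.0, RLE scaling, no filter, a muscle covariate, limma 3.58.1 on log2(FPKM + 1), offsets for length and GC content, a replicate block, fits of the compared groups only, and leaving out each mouse. The 9 genes and the gene lists were chosen with earlier results of these data known. All 9 are named, with the 3 genes most alike and, of each list, up to 2 called genes per direction and comparison by largest change. Ighd, Lck, Glycam1 and Cxcl13, and Jchain in mouse 6, were named after their values were seen. Refits of listed genes without control mouse 5 at 5 d or control mice 2 and 3 at 15 h were chosen after seeing the data.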

Additional observations from a re-analysis of the deposited data

Results flagged for a closer look

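Of 72 sets of 5 values (9 genes in 8 groups), 11 had 1 mouse far from the other 4 by Dixon's criterion (a gap of over 0.71 of the range), where chance gives about 1 in 20, or 3.6 sets. In Jag antibody mice at 15 h, mouse 6 was the high value for Cd79a (3.32 log2 CPM), Cd79b (4.37), Ms4a1 (4.29) and Cd3e (2.30). In Jag antibody mice at 5 d, Cd79b was high in mouse 6 (2.67), Cd79a low in mouse 10 (-0.61) and Cd8a low in mouse 8 (-3.37, which is 0 counts). In control mice, Cd3d was high in mouse 2 at 15 h (0.72), Cd4 high in mouse 1 at 15 h (1.24), Cd79a high in mouse 5 at 5 d (-0.38) and Cd8a low in mouse 2 at 5 d (-3.37, also 0 counts).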

How the results depend on the processing

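Low counts (medians of 4 to 31 for the 9 genes) and 5 mice per group limit what could be detected, and 1 mouse decided most calls. Of 1344 values with 1 mouse left out, 1201 kept their direction and call, 28 lost a call, 15 gained one, 3 reversed and 97 changed sign without being called. Of 842 values under the other alternatives these were 756, 35, 15, 0 and 36. Where a cause is not given below, it was not tested.

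Genes called between antibodies at 15 h were 577 with DESeq2, 26 with no filter, 118 with a muscle covariate, 26 with limma and 0 with only the groups compared, against 194, and of the 8 genes DESeq2 called 1. At 5 d (1369) they were 837 with no filter, 89 with the muscle covariate and 431 with only the groups compared. At 7 d (427) they were 858 with DESeq2, 191 with no filter and 53 with only the groups compared. At 7 d with hormone (194) they were 449, 117 and 694 in the same order, and 505 with limma. For hormone in Jag antibody mice (1622) they were 990 with no filter and 2782 with only the groups compared. For 5 d against 15 h they were 0 in control mice with only the groups compared, and 1556 in Jag antibody mice (2470) with the block and offsets. For 7 d against 15 h in Jag antibody mice (3126) they were 2057 with no filter, 1914 with offsets and 1741 with block and offsets.

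Of the 8 genes, hormone in control mice called 1 with length and GC offsets and 1 with block and offsets. At 7 d against 15 h in control mice (1 called) it was 0 with no filter or limma, 2 with the muscle covariate, offsets, block or only the groups compared, and 3 with block and offsets. In Jag antibody mice at 5 d against 15 h (2 called) it was 0 with limma, block, block and offsets, or only the groups compared. At 7 d against 15 h (6 called) it was 2 with the block and 0 with limma, block and offsets, or only the groups compared.

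The antibody by hormone interaction (1 gene) called 9 with DESeq2, 36 with limma, 1 with RLE scaling and 0 under the other alternatives. The antibody difference at 5 d against 15 h (17) called 498 with DESeq2, 6 with no filter, 0 with the muscle covariate, 11 with limma, 77 with offsets, 51 with the block, 141 with block and offsets and 2 with only the groups compared. At 7 d against 15 h (223) it called 638 with DESeq2, 65 with no filter, 78 with limma, 35 with the block, 91 with block and offsets and 7 with only the groups compared. The median r of the 28 pairs was 0.0481 without the 2 farthest mice and 0.12 without mouse 6 at 15 h, and pairs past the threshold went from 5 to 1.

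Leaving out each mouse in turn gave 6 to 753 genes between antibodies at 15 h, 385 to 2726 at 5 d, 144 to 848 at 7 d and 80 to 232 at 7 d with hormone. Hormone gave 0 to 2 of the 8 genes in control mice, and 1048 to 1912 genes and 0 to 1 of the 8 in Jag antibody mice. At 7 d against 15 h in control mice it gave 0 to 3 of the 8. Jag antibody mice gave 1164 to 3252 genes and 1 to 3 of the 8 at 5 d against 15 h, and 1653 to 3206 genes and 0 to 7 of the 8 at 7 d against 15 h. The interaction gave 0 to 2 genes, and the antibody difference 2 to 151 at 5 d and 10 to 696 at 7 d. The 3 reversed values were those without mouse 6 at 15 h: Cd79b ran from -1.83 to 1.38 at 5 d against 15 h, and at 7 d against 15 h Cd79a from -1.82 to 0.21 and Cd79b from -2.11 to 0.61.

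The replicate block used the label numbers, which nothing in the labels ties to shared litters or days. Deviations of same-numbered mice had a mean r of 0.0819 to 0.185 over 6 pairs of groups, with single pairs from -0.337 to 0.731, and 1 to 2 of 5 mice correlated best with their own number, so the numbers were not taken to pair the mice. With the block, hormone in control mice called 7424 genes, 7 d against 15 h in control mice 7524 and in Jag antibody mice 2884.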
